A study of Drosophila melanogaster with 12 samples.

Results

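The cytosolic ribosomal protein genes of Drosophila melanogaster were described as all genes whose symbol starts with RpL (large subunit, with the RpLP genes of the stalk) or RpS (small subunit), written with that case. This rule found 92 genes, 54 RpL and 38 RpS, and the same 92 were listed in both count tables, among 17813 genes in the Kallisto table and 17814 in the HTSeq table. Total RNA came from whole larvae of the third instar, at the wandering stage, of the wild type strain Oregon-R, in 3 RNA samples of 40 larvae each. The RNA was sequenced as input, without depletion, or after removal of rRNA with biotinylated antisense oligonucleotides and streptavidin beads, and synthetic spike-in RNAs had been added before that step. Each kind of RNA was made into random-primed libraries (NEBNext Ultra II Directional), in which reads fall along a whole transcript, and into poly(A)-primed libraries (QuantSeq), in which a transcript gives reads near its 3′ end. Per the study's methods, every RNA sample gave 1 library of each kind, so that input and depleted libraries, and both library types, came in pairs from the same RNA. The 4 groups, poly(A)-primed input, poly(A)-primed depleted, random-primed input and random-primed depleted, held 3 libraries each. No library came from sorted tissue, so each value is a sum over all tissues of the pooled animals.

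A eukaryotic ribosome holds a copy of each of its proteins next to the rRNAs, except in the stalk, where the acidic proteins P1 and P2 bind as dimers to P0. The mRNAs of these genes are short, very abundant in growing tissue and polyadenylated, and many carry small nucleolar RNAs (snoRNAs), the guides of rRNA modification, in their introns. Flies have kept second copies of several of these genes, some of which are known from the germline. The oligonucleotides were directed at rRNA, so the ribosomal protein mRNAs were not intended targets of the depletion.

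All 92 genes were matched by identifier to the Ensembl annotation of BDGP6.54, a later release of the build used for the counts, where each is a protein-coding gene. They lie dispersed over the genome, with 23 on arm 3R, 21 on 2R, 19 on 2L, 14 on 3L, 14 on the X chromosome and 1 on chromosome 4. In 27 of them the annotation places at least 1 snoRNA in an intron, 67 in all. RpL37A (FBgn0261608) and RpL37a (FBgn0030616) are different genes whose symbols differ only in case, and values for each are given by that spelling.

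The random-primed input libraries held 428039 to 596423 estimated counts outside rRNA and spike-ins and their depleted counterparts 9037947 to 12422418, while poly(A) priming gave 3311445 to 5709119 before and 2495307 to 4199300 after depletion. The ribosomal protein genes held between 26398 and 33155 counts in a random-primed input library and between 432636 and 971819 in a poly(A)-primed library. Values of single genes in the random-primed input are therefore the least precise of this data set. With random priming rRNA took 96.2% to 97.3% of the input and 23.7% to 33.4% of the depleted counts, and with poly(A) priming it took 5.09% to 23.4%. Summed counts of marker genes of fat body, salivary gland, muscle, gut and germline were above 0 in every library, as in whole larvae, while those of spermatocytes (aly, can, sa and mia) were at 0 in at least 1 random-primed input library and at most 16.2 CPM in the others.

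The share of these genes was larger in the poly(A)-primed than in the random-primed libraries. In the poly(A)-primed libraries their share of the counts outside rRNA and spike-ins was 16.1%, 17.0% and 16.8% in the input and 17.6%, 16.8% and 17.3% in the depleted libraries. The groups overlapped, and the difference of 0.582 percentage points did not stand apart from the spread (exact two-sided permutation test, p = 0.3). Random priming gave shares of 5.59%, 5.56% and 6.17% in the input and 6.44%, 6.26% and 7.03% in the depleted libraries. Here every depleted library lay above every input library (p = 0.1 in the exact permutation test, the smallest that 3 against 3 can give), by 0.854, 0.703 and 0.866 percentage points within the pairs. An exact sign-flip test over 3 pairs cannot go below 0.25. With protein-coding counts as the denominator the random-primed groups overlapped, at 6.81% ± 0.664 (SD, n = 3) in the input and 7.51% ± 0.676 (SD, n = 3) in the depleted libraries. Counted per length, as TPM (the share of a library's transcripts that a gene makes up) rescaled to the genes outside rRNA and spike-ins, the genes made up 8.35% ± 0.247 (SD, n = 3) of the random-primed input and 10.6% ± 0.193 (SD, n = 3) of the random-primed depleted transcripts.

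Relative to the summed spike-ins, 86.9% of the ribosomal protein counts remained after depletion in the poly(A)-primed libraries and 98.6% in the random-primed libraries. With poly(A) priming the ratio of ribosomal protein to spike-in counts was 3.15, 3.26 and 2.64 in the input and 2.73, 2.86 and 2.28 after depletion. With random priming it was 1.70, 1.86 and 1.41 in the input and 1.70, 1.82 and 1.38 after depletion. Input and depleted values overlapped in both library types (exact permutation test, p = 0.3 for the poly(A)-primed and 0.8 for the random-primed libraries). Within the pairs, a comparison added after seeing the data, the depleted poly(A)-primed library kept 86.6%, 87.8% and 86.3% of the ratio of its input, a decrease in 3 of 3 pairs (exact two-sided sign-flip test, p = 0.25, the smallest possible), and the random-primed libraries kept 100.3%, 97.9% and 97.5%.

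Most of the genes sat within a narrow band of levels. In the random-primed depleted libraries, which hold the most counts, the median gene had a mean of 1142 TPM, against 7.15 TPM for the median of the 13104 protein-coding genes above 0. The mean of 67 of the 92 lay within a factor of 2 of that median, 34 were among the 100 most abundant genes outside rRNA and spike-ins, and 70 were among the 200 most abundant. The median coefficient of variation over the 3 libraries was 7.65% for the genes of at least 100 TPM. The 12 genes under 100 TPM were, without exception, the lower member of a paralog pair.

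**Figure D1:**
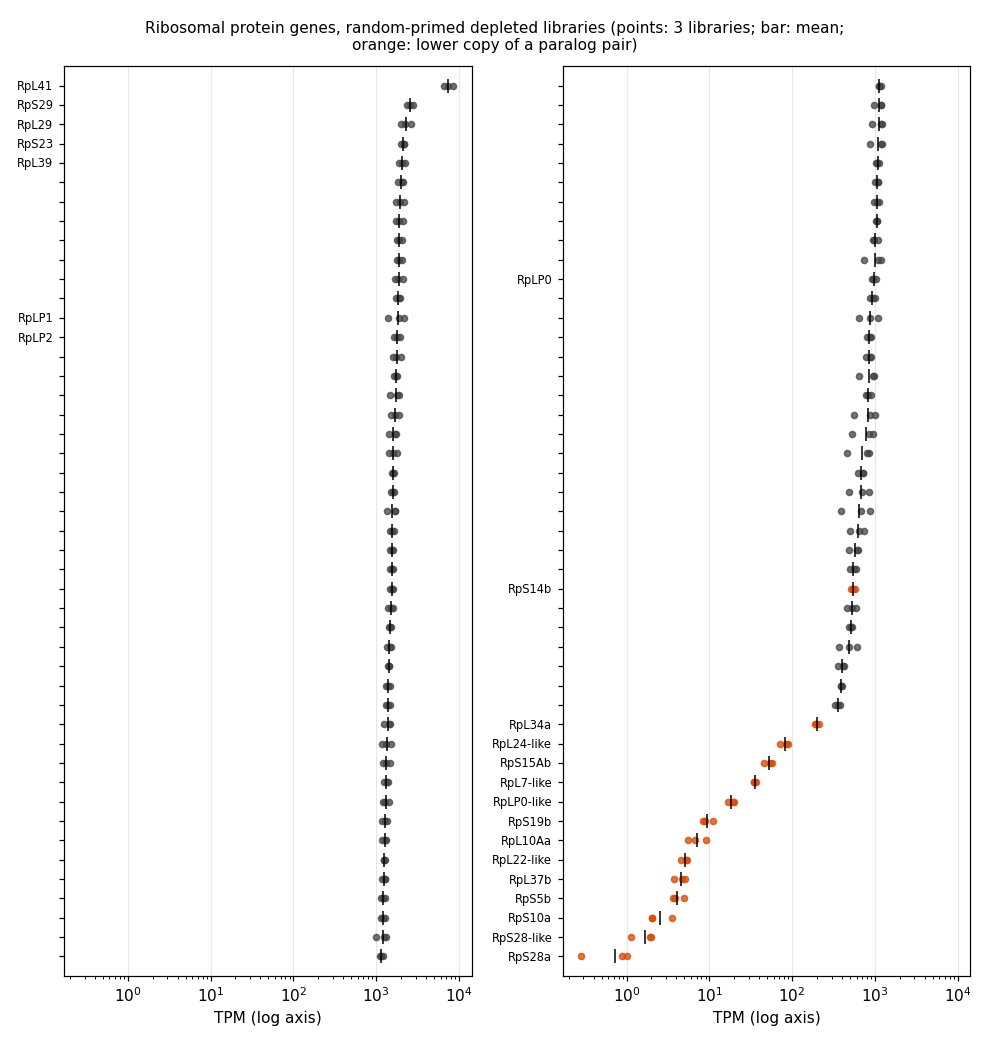
Levels of the 92 ribosomal protein genes in the 3 random-primed depleted libraries, as TPM on a log axis, ordered by the mean. Points are libraries, bars are means, and orange marks the lower copy of a paralog pair. Names are given for the 5 highest genes, the lower copies and the stalk genes. RpL41 lies highest, at a mean of 7481 TPM, and the 12 genes under 100 TPM at the foot of the right panel are all orange.

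RpL41, which encodes a very small protein of the large subunit, had the highest level per length. Its values were 5151, 4272 and 5377 TPM in the random-primed input and 7297, 6620 and 8526 TPM in the random-primed depleted libraries. All depleted values lay above all input values, yet the fitted log2 difference of 0.43 ± 0.22 (SE) did not pass the test described below (edgeR, adjusted p = 0.518). With a block for the RNA sample it passed (0.43, edgeR, adjusted p = 8.3e-06). The next highest means in the random-primed depleted libraries were those of RpS29 (2580 TPM), RpL29 (2285 TPM), RpS23 (2103 TPM) and RpL39 (2064 TPM). RpS23 encodes a protein of the decoding site and RpL39 a protein of the exit tunnel. Their libraries overlapped, at 2024 to 2143 TPM and 1886 to 2240 TPM, and RpL29 (2016 to 2622 TPM) overlapped both of them and RpS29 (2383 to 2816 TPM). Within each library RpS29 lay above RpL29, RpS23 and RpL39, and RpL29 lay above RpL39. The order of RpS23 against RpL29 and RpL39 changed between libraries.

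In the poly(A)-primed libraries a transcript gives reads from 1 end, so CPM (counts scaled to an equal library total outside rRNA and spike-ins) need no division by length. The 5 highest genes by HTSeq counts in the input were RpL23 (7298 CPM), RpL41 (7073 CPM), RpLP2 (6659 CPM), RpLP1 (5224 CPM) and RpS26 (4976 CPM). RpL23 is a protein of the subunit interface and RpS26 lies at the mRNA exit channel. The stalk genes differed from each other on this scale. RpLP0, the base of the stalk, had 1265, 1402 and 1158 CPM in the input libraries. RpLP1, which encodes an acidic protein of the stalk, had 5110, 6538 and 4023 CPM. RpLP2, its partner, had 6490, 6583 and 6902 CPM. Thus no RpLP0 value came near those of RpLP1 and RpLP2, and RpLP1 and RpLP2 overlapped. Per length in the random-primed depleted libraries the means were 972 TPM for RpLP0, 1817 TPM for RpLP1 and 1788 TPM for RpLP2. RpL40 and RpS27A, which are made as fusions of ubiquitin with a ribosomal protein, had means of 1257 and 1954 TPM there. Without a block for the RNA sample neither RpLP0, RpLP2, RpL40 nor RpS27A passed a depletion test, with log2 differences of 0.18, -0.08, 0.01 and -0.10 in the poly(A)-primed and of 0.26, 0.30, 0.27 and 0.19 in the random-primed libraries. With the block all 4 were higher in the random-primed depleted libraries (edgeR, adjusted p = 0.007, 0.00061, 0.0056 and 0.023) and none passed in the poly(A)-primed libraries. At the lower end of the HTSeq counts in the input were RpL7-like (0 counts), RpS28a (1.46 CPM), RpL22-like (1.91 CPM), RpL37b (3.15 CPM) and RpS28-like (3.78 CPM).

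The first comparison asked which of these mRNAs changed when rRNA was removed, in the poly(A)-primed libraries by HTSeq counts. RpS24, RpL3, RpL6, RpS26, RpLP1 and 6 further genes fell after depletion, and RpS15Aa rose. The whole table was tested in edgeR (quasi-likelihood, TMM scaling), with a Benjamini-Hochberg adjusted p under 0.05 as the threshold. Of the 90 ribosomal protein genes that passed the filter on low counts, 11 were lower and 1 was higher, or 13.3% called, against 4.85% of the 9530 genes tested (3.85% lower and 0.997% higher). Fold changes below carry the TMM scaling and so differ from ratios of the CPM means. Their median log2 difference was -0.10, against 0.02 for all genes tested. When the libraries were instead scaled to their non-rRNA totals, a choice made after seeing the data, the median of all genes moved to 0.21, that of the ribosomal protein genes to 0.09, and 7 were higher and 8 lower. The sign of the group's median thus depended on the scaling.

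This fit, like those that follow unless a block is named, left out the pairing of the libraries. With a block for the RNA sample 29 ribosomal protein genes were lower and 12 higher, among them all 12 of the fit without it, against 11.6% lower and 8.28% higher of all genes tested. Besides the 12, the lowest were RpS2 (-0.78, edgeR, adjusted p = 8.5e-08), a protein of the mRNA entry channel, and RpL8 (-0.53, adjusted p = 7.2e-05), and the highest was RpL39 (0.55, adjusted p = 3.8e-05). With the block and scaling to the non-rRNA total, a choice made after seeing the data, 27 were higher and 19 lower, and with the block and spike-in scaling 11 were higher and 35 lower, so that the balance between the directions depended on the scaling. The medians were 0.09 and -0.16, against 0.21 and -0.04 for all genes tested, and no share of all genes called is given for these settings.

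In the random-primed libraries, tested in the same way on estimated counts, RpS24, RpL23A, RpL28, RpL26, RpL6 and RpS6 fell, and without the block no ribosomal protein gene passed as higher. Of the 88 that passed the filter on low counts, 6 were called, or 6.82%, against 2.34% of the 10893 genes tested (2.28% lower and 0.0643% higher). At an unadjusted p under 0.05, 12 were higher and 9 lower, and DESeq2 called 8 lower and 1 higher, RpS19a. The median log2 difference was 0.22, against 0.06 for all genes, and 73 of the 88 values were above 0. With spike-in scaling the medians were 0.06 and -0.10, and 57 values were above 0. Each of the 6 genes lower in the random-primed libraries was also lower in the poly(A)-primed libraries, that is 100% of the random-primed and 54.5% of the poly(A)-primed list of lower genes. Over all genes tested in both, 53.2% of the 139 genes lower with random priming were also lower with poly(A) priming. Both library types were made from the same input and depleted RNA, so these lists are not independent.

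The block changed the random-primed comparison most. With it 47 ribosomal protein genes were higher and 12 lower, against 2.44% higher and 5.43% lower of all genes tested, and the 6 decreases stayed among the 12. RpS29 (0.50, edgeR, adjusted p = 7.8e-06) and RpS28b (0.49, adjusted p = 1.5e-05), both of the small subunit, were highest. These increases depended on the scaling. With the block and spike-in scaling 16 were higher and 15 lower, and with the block and the non-rRNA total 55 were higher and 11 lower, both run after seeing the data. The medians were 0.06 and 0.27, against -0.10 and 0.11 for all genes tested. No share of all genes called is given for these settings, so the counts are not read as particular to the group.

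**Figure D2:**
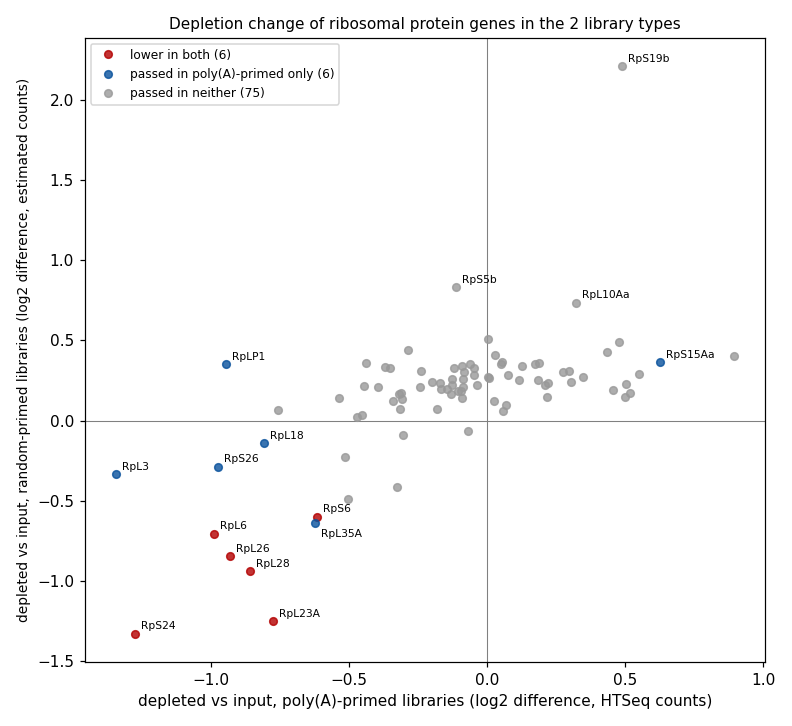
Depleted against input, as log2 differences, for the 87 ribosomal protein genes tested in both library types: poly(A)-primed on the horizontal and random-primed on the vertical axis. Each point is a gene. The 6 red genes were lower in both and lie at the lower left, the 6 blue genes passed only in the poly(A)-primed libraries (fits without the block), and RpLP1 is the blue gene with a negative value on the horizontal and a positive value on the vertical axis.

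RpS24 encodes a protein of the small subunit and lies on 2R (22640526 to 22641419, minus strand). It had 1650, 1671 and 1591 CPM (HTSeq counts) in the poly(A)-primed input and 708, 834 and 782 CPM in the poly(A)-primed depleted libraries. The log2 difference was -1.27 ± 0.14 (SE), with an adjusted p of 0.000191 by edgeR. With random priming it had 516, 558 and 554 CPM (estimated counts) in the input and 214, 229 and 227 CPM after depletion, a log2 difference of -1.33 ± 0.14 (edgeR, adjusted p = 0.000158). In both library types every input value lay above every depleted value. RpS24 was the only ribosomal protein gene that passed in both library types without any 1 library and also with spike-in scaling.

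RpL23A, on 3L (1666288 to 1668654, minus strand), encodes a protein at the mouth of the exit tunnel and hosts 3 intronic snoRNAs. Its exons overlap those of Uhg7, a host gene of snoRNAs, on the same strand. With random priming it fell from 921, 962 and 847 CPM in the input to 387, 401 and 396 CPM after depletion, a log2 difference of -1.25 ± 0.14 (edgeR, adjusted p = 0.000281). The input and depleted values did not overlap. In the poly(A)-primed libraries HTSeq, which leaves out reads that fall on overlapping genes, assigned 619, 577 and 581 CPM to it in the input and 408, 388 and 388 CPM after depletion, a log2 difference of -0.78 ± 0.14 (edgeR, adjusted p = 0.00712). By Kallisto's estimates the same libraries gave 1974, 2150 and 1863 CPM in the input and 1054, 1079 and 1099 CPM after depletion. HTSeq thus counted 31.5% of the reads that Kallisto assigned to RpL23A, and the groups were apart by both ways of counting.

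RpL28, on 3L (3220911 to 3222960, minus strand) and a host of 3 intronic snoRNAs, had 1231, 1226 and 1205 CPM in the poly(A)-primed input and 779, 784 and 746 CPM in the depleted libraries by HTSeq counts. The random-primed values were 532, 516 and 547 CPM in the input and 306, 273 and 281 CPM after depletion. The log2 differences were -0.86 ± 0.14 and -0.94 ± 0.14 (edgeR, adjusted p = 0.00346 and 0.00206). RpL26, a neighbour of the tunnel exit, on 3L (18898875 to 18900408, plus strand), fell from 1935, 2175 and 1641 CPM to 1140, 1207 and 1099 CPM in the poly(A)-primed libraries (log2 difference -0.93 ± 0.16, edgeR, adjusted p = 0.00369). With random priming it fell from 640, 625 and 530 CPM to 334, 350 and 347 CPM (log2 difference -0.85 ± 0.14, edgeR, adjusted p = 0.00477). Neither RpL28 nor RpL26 had overlapping groups in either library type.

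RpL6, on 3R (31594792 to 31596204, minus strand), fell from 1679, 1848 and 1745 CPM to 980, 1171 and 890 CPM in the poly(A)-primed libraries (log2 difference -0.99 ± 0.15, edgeR, adjusted p = 0.0022). Its random-primed values were 680, 748 and 720 CPM in the input and 439, 544 and 383 CPM after depletion (log2 difference -0.71 ± 0.15, edgeR, adjusted p = 0.0304). RpS6, the target of S6 kinase in growth signalling, lies on the X chromosome (7899624 to 7901331, minus strand), where it overlaps CR33222 and a snoRNA on the same strand, and had the smallest changes of the 6. It had 926, 985 and 759 CPM in the poly(A)-primed input and 657, 718 and 619 CPM after depletion, and in the random-primed libraries 723, 835 and 769 CPM against 538, 548 and 499 CPM. The input and depleted values of RpL6 and RpS6 did not overlap, and the log2 differences of RpS6 were -0.62 ± 0.15 and -0.60 ± 0.14 (edgeR, adjusted p = 0.0377 and 0.0386).

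**Figure D3:**
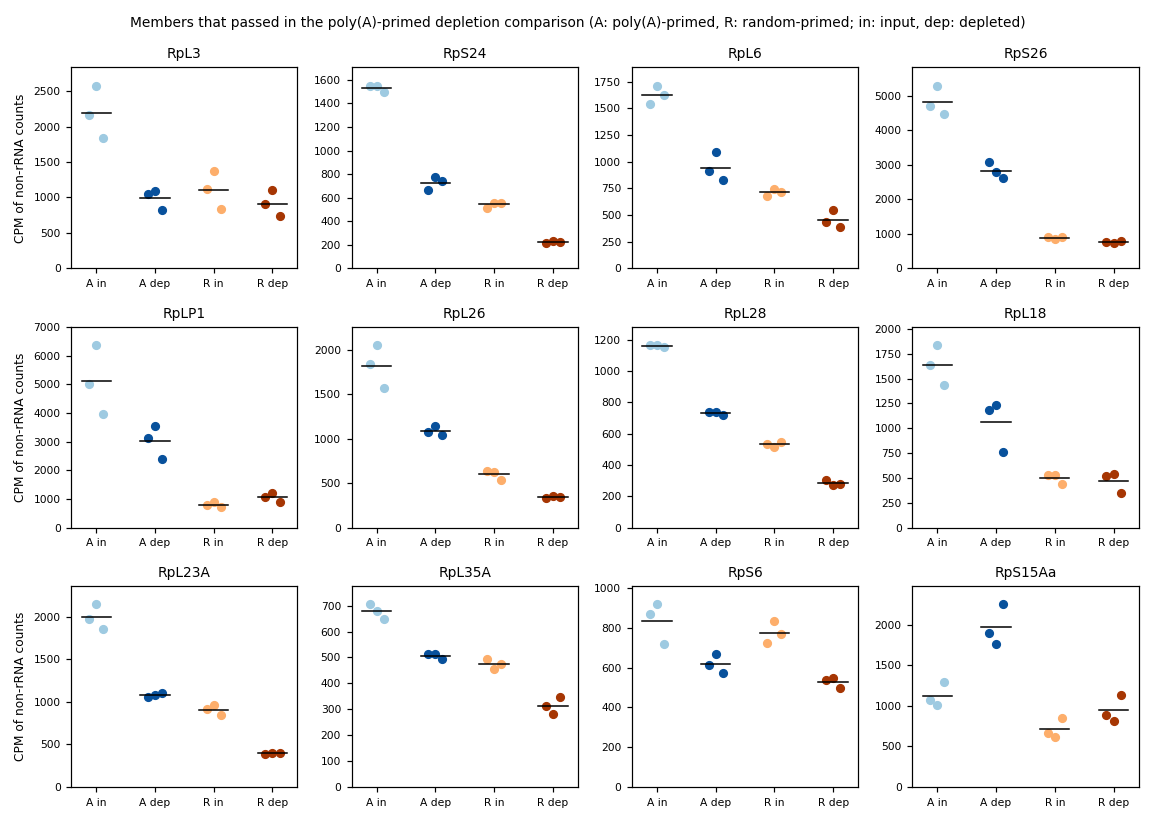
CPM of non-rRNA counts (estimated counts, linear axis from 0) of the 12 ribosomal protein genes that passed in the poly(A)-primed depletion comparison, with 3 libraries in each of the 4 groups and bars at the means. RpS24, RpL23A, RpL28 and RpL26 have separate groups in both library types, while RpLP1 falls from 5109 to 3015 CPM in the poly(A)-primed and goes from 798 to 1054 CPM in the random-primed libraries.

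The other 5 genes that fell in the poly(A)-primed libraries did not pass in the random-primed libraries without the block. RpL3, next to the peptidyl transferase centre, had 2306, 2805 and 1969 CPM by HTSeq counts in the poly(A)-primed input and 1116, 1204 and 873 CPM after depletion, the largest decrease of the 11 (log2 difference -1.35 ± 0.18, edgeR, adjusted p = 0.000774). Its random-primed values, 1121, 1376 and 838 CPM in the input and 905, 1104 and 732 CPM after depletion, overlapped (log2 difference -0.33 ± 0.19, edgeR, adjusted p = 0.566). RpS26 fell from 4861, 5469 and 4598 CPM to 3175, 2849 and 2658 CPM in the poly(A)-primed libraries (log2 difference -0.97 ± 0.16, edgeR, adjusted p = 0.00299). RpL35A came close to the threshold in the random-primed libraries, at a log2 difference of -0.64 ± 0.15 with an adjusted p of 0.0503 by edgeR, and was at -0.63 in the poly(A)-primed libraries. RpL18 was at -0.81 in the poly(A)-primed and at -0.14 in the random-primed libraries. With the block RpL3 (-0.33), RpS26 (-0.29) and RpL35A (-0.66) were lower in the random-primed libraries as well (edgeR, adjusted p = 0.00031, 0.0011 and 5.9e-06), RpLP1 was higher (0.35, adjusted p = 0.00018), and RpL18 did not pass (adjusted p = 0.3).

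RpS15Aa, a small subunit gene on the X chromosome, was the only ribosomal protein gene that passed as higher in the poly(A)-primed comparison under TMM scaling without the block. It had 1096, 1056 and 1286 CPM in the input and 1957, 1806 and 2283 CPM after depletion by HTSeq counts, with no overlap (log2 difference 0.62 ± 0.16, edgeR, adjusted p = 0.0443). By Kallisto's estimates of the same libraries it had an adjusted p of 0.053 (edgeR), and its random-primed log2 difference was 0.36 ± 0.20 (edgeR, adjusted p = 0.541), which passed with the block (adjusted p = 0.00016). The highest poly(A)-primed value, 0.89 ± 0.41 for RpL22-like (edgeR, adjusted p = 0.234), did not pass. The highest random-primed value, 2.21 ± 0.94 for RpS19b (edgeR, adjusted p = 0.399), rested on 0, 0 and 2 counts in the input libraries.

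Without the block, several of these calls depended on single libraries or on the scaling. Among the 12 poly(A)-primed calls, those of RpS24, RpL3, RpL6, RpS26, RpL28 and RpL26 held without any 1 of the 6 libraries, and those of RpS24, RpL3 and RpS26 held with spike-in scaling. The calls of RpS15Aa, RpL18, RpL35A and RpS6 were each lost on leaving out any library but input replicate 3, with adjusted p up to 0.2, 0.12, 0.14 and 0.17 in edgeR. That of RpLP1 was lost without input replicate 1 or 2 or depleted replicate 1 or 2 (up to 0.085), and that of RpL23A without input replicate 1 or depleted replicate 2 (up to 0.069). Among the 6 random-primed calls, those of RpS24, RpL23A and RpL28 held without any 1 library, and those of RpS24 and RpL23A held with spike-in scaling. The call of RpL26 was lost without input or depleted replicate 1 (adjusted p up to 0.056 in edgeR), that of RpL6 without any 1 input replicate or depleted replicate 1 (up to 0.18), and that of RpS6 without any 1 library but depleted replicate 3 (up to 0.22). Without 1 library the number of poly(A)-primed decreases fell to 6 (input replicate 1 or depleted replicate 2) or 7 (input replicate 2 or depleted replicate 1), and that of random-primed decreases to 3 (input or depleted replicate 1). All these values kept their sign.

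The 6 genes lower in both library types came from both subunits, 4 RpL and 2 RpS. Their transcripts were 559 to 1017 nt long (median 804.5 nt), as implied by counts and TPM, against 288 to 1400 nt (median 643 nt) for the other 81 genes tested in both. Their random-primed input levels lay between 700.2 and 900.04 TPM, near the median of 964 TPM of the others. Of the 6, 2 host an intronic snoRNA, against 25 of the 81. These are descriptions of genes that the test had selected.

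The depletion changes of the poly(A)-primed and random-primed libraries were set against each other in a single edgeR fit of all 12 libraries. RpLP1 was the only ribosomal protein gene whose change differed, 1 of 91 tested or 1.1%, against 0.456% of the 11175 genes tested (0.322% lower and 0.134% higher). It had 4996, 6376 and 3954 CPM of estimated counts in the poly(A)-primed input and 3121, 3535 and 2389 CPM in the poly(A)-primed depleted libraries, and in the random-primed libraries 782, 885 and 727 CPM in the input and 1063, 1196 and 904 CPM after depletion. All poly(A)-primed depleted values were below the input, and all random-primed depleted values were above it. The log2 difference between the changes was -1.45 ± 0.26 (edgeR, adjusted p = 0.0191). The call held without poly(A)-primed input replicate 3, random-primed input replicate 3 or random-primed depleted replicate 2 or 3. It was lost without any 1 of the other 8 libraries, with an adjusted p up to 0.14 (without poly(A)-primed input replicate 2, where the value was -1.10). In the fit without the block the depletion change was not shown to differ for RpL3 (log2 difference between the changes -1.15 ± 0.27, edgeR, adjusted p = 0.0728) or RpS26 (-0.81 ± 0.20, edgeR, adjusted p = 0.0961). With a block for the RNA sample 48 genes were lower and 0 higher in this contrast, against 5.66% lower and 1.12% higher of all genes tested, and RpLP1 (-1.44, edgeR, adjusted p = 8.4e-11), RpL3 (-1.15, adjusted p = 4e-09) and RpS26 (-0.82, adjusted p = 1.3e-05) were among them. Without the block, at an unadjusted p under 0.05, 33 genes were lower and 0 higher in this contrast, with a median over the ribosomal protein genes of -0.41 against -0.16 for all genes.

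In counts not divided by length, the differences between library types were much larger than those with depletion. Random-primed counts grow with transcript length and poly(A)-primed counts do not, so this contrast sets unlike measures against each other. Values after division by length are given below. In the depleted libraries, 87 of 91 ribosomal protein genes were higher in the poly(A)-primed than in the random-primed libraries and 0 were lower, or 95.6% called, against 68.4% of all 11175 genes tested, where 32.8% were higher and 35.6% lower. The median log2 difference was 1.77, against -0.04 for all genes. In the input libraries 88 were higher and 0 lower, where 60.0% of all genes were called, 31.0% higher and 29.0% lower, with a median of 2.16 against 0.13. In edgeR no ribosomal protein gene was lower at an unadjusted p under 0.05 in either contrast. A scaling by relative log expression put the median of all genes at 0.10 and that of the ribosomal protein genes at 1.91 in the depleted libraries, with 0.11 and 2.13 in the input libraries.

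RpLP2 and RpL23 differed most. RpLP2 had 7072, 6174 and 7197 CPM of estimated counts in the poly(A)-primed depleted and 1004, 924 and 1239 CPM in the random-primed depleted libraries, a log2 difference of 3.22 ± 0.19 (edgeR, adjusted p = 3.29e-10). For RpL23 the values were 6708, 6393 and 5424 CPM against 1054, 1036 and 1079 CPM (log2 difference 3.08 ± 0.16, edgeR, adjusted p = 1.52e-10). No poly(A)-primed value of either gene came within the range of the random-primed values. In the input libraries the largest log2 differences were those of RpL23 (3.92), RpLP2 (3.74), RpLP1 (3.50), RpS21 (3.42) and RpS28-like (3.28). The value of RpS28-like had an SE of 0.92 and rested on 0, 0 and 1 counts in the random-primed input libraries. Its value in the depleted libraries, given next, rested on 8, 8 and 4 random-primed counts. In the depleted libraries RpS28-like (2.99), RpS21 (2.94) and RpL39 (2.75) followed RpLP2 and RpL23, while RpL22, RpL22-like, RpL4 and RpL10Aa did not pass, at log2 differences of -0.03, -0.28, 0.15 and 0.70 (with the block RpL10Aa passed, edgeR, adjusted p = 0.014). RpL4, a protein of the exit tunnel, had the longest transcript of the group.

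Before division by length, the difference between library types went with transcript length. Across the 91 genes, Spearman's rho between length and the log2 difference was -0.481 in the depleted and -0.448 in the input libraries, a description across genes that share all 12 libraries. The 29 shortest had a median of 1.96 and the 31 longest of 1.52 in the depleted libraries. When the random-primed counts were divided by length within the fit, 38 genes were higher and 7 lower in the depleted libraries, against 18.6% higher and 20.2% lower of all genes tested, with a median log2 difference of 0.31 against -0.04. In the input libraries 53 were higher and 4 lower, against 16.3% and 18.1%. Spearman's rho between length and the log2 difference was then 0.183 in the depleted and 0.178 in the input libraries, of the opposite sign. Of the 87 genes called higher in the depleted libraries, 23 had a value below 0 after the division. RpLP2 then kept 1.62 and RpL23 1.32, RpL8 reached 1.37, and RpS10b (-0.79), RpL22 (-0.77) and RpL34b (-0.62) were among the lower.

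**Figure D4:**
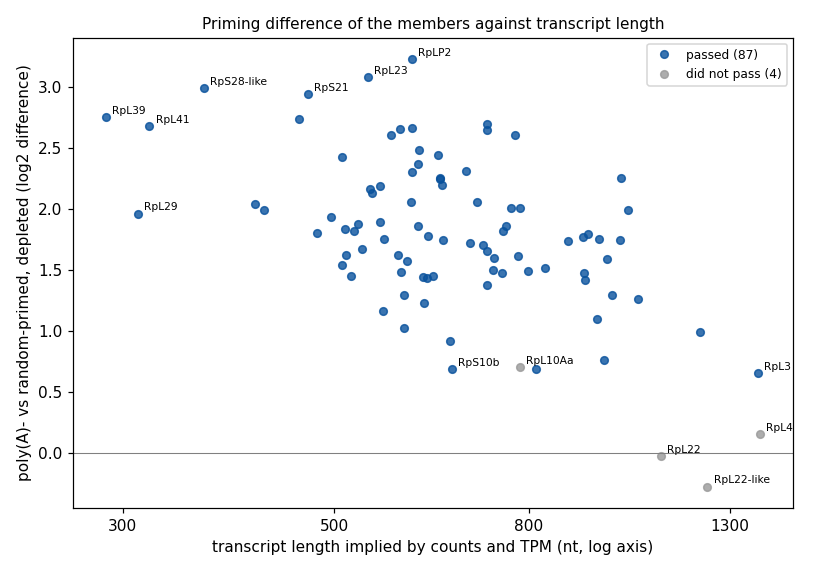
Poly(A)-primed against random-primed depleted libraries, as log2 differences of the 91 ribosomal protein genes tested, against transcript length in nt on a log axis. Blue points passed (87) and grey points did not (4). Short genes such as RpL39 (2.75) lie high, and the long genes RpL3 (0.65) and RpL4 (0.15) lie low.

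Paralogs, that is a and b copies and -like genes with their namesakes, were set against each other in 14 pairs. The measure was the share of the pair's counts on the gene with fewer counts, called the lower copy here. RpS28b entered with both RpS28a and RpS28-like. With poly(A) priming RpL34a held the largest share of its pair, while with random priming RpS14b did, at means of 30.8% in the input and 30.5% in the depleted libraries against 22.9% and 22.8% for RpL34a. RpL24-like came next, and the lower copy held under 5% of the estimated counts in every library in the other 11. The shares were compared between input and depleted libraries by exact two-sided permutation tests, in which 3 against 3 cannot go below 0.1, and 5 of 14 pairs had no overlap with poly(A) priming and 5 of 14 with random priming (adjusted p = 0.28 over the 14 pairs for each of these). No pair therefore passed. RpL22-like and RpS15Ab had no overlap in both library types. Most random-primed pairs without overlap rested on few input counts of the lower copy. In the random-primed input libraries RpS28a had 0 counts in each, RpS5b 1 in each, RpS10a 1, 2 and 1, and RpL22-like 3, 1 and 3. These counts also limit the random-primed directions given next, as do the 0, 0 and 2 counts of RpS19b. Within the 3 RNA samples the share moved in 1 direction in all 3 for 10 of 14 pairs with poly(A) priming and for 6 of 14 with random priming, where the exact sign-flip test cannot go below 0.25. These numbers of pairs, and those below, stand without a share over other gene pairs. They are not read as particular to these genes.

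**Figure D5:**
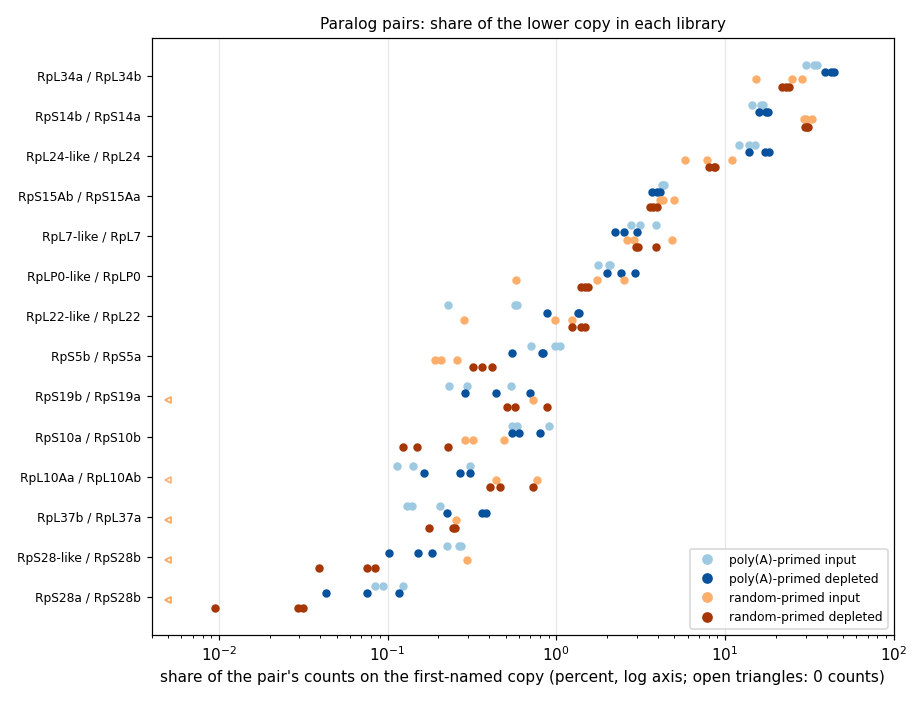
Share of each pair's estimated counts on the lower copy, in percent on a log axis, for 14 pairs and 12 libraries in 4 colours. Open triangles at the left edge mark libraries with 0 counts of the lower copy, all of them random-primed input libraries. RpL34a lies at 39.4% to 44.2% in the poly(A)-primed depleted and at 21.7% to 24.0% in the random-primed depleted libraries.

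RpL34a held 33.8%, 30.1% and 35.3% of the counts of RpL34a and RpL34b in the poly(A)-primed input and 42.4%, 39.4% and 44.2% in the poly(A)-primed depleted libraries. With random priming its share was 24.9%, 15.3% and 28.6% in the input and 22.9%, 21.7% and 24.0% after depletion. The poly(A)-primed groups did not overlap and the random-primed groups did. Within the RNA samples the poly(A)-primed share was higher after depletion by 8.59, 9.32 and 8.92 percentage points. Neither RpL34a (edgeR log2 difference 0.22, adjusted p = 0.427) nor RpL34b (-0.34, adjusted p = 0.225) passed the poly(A)-primed depletion test by itself without the block, and with it RpL34b passed (-0.34, edgeR, adjusted p = 0.0086). RpS14a and RpS14b encode the same protein, and the assignment of reads to each copy is uncertain. RpS14b was given 17.9%, 17.4% and 15.9% of the pair's counts in the poly(A)-primed depleted and 30.9%, 30.7% and 29.97% in the random-primed depleted libraries.

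In 9 of the 14 pairs the share did not overlap between the poly(A)-primed and the random-primed depleted libraries, higher in the poly(A)-primed for 7 and lower for 2 (exact permutation test, p = 0.1 each and at least 0.16 after adjustment over the pairs). RpL24-like, the relative of a yeast factor of large subunit assembly, held 17.3%, 18.3% and 13.8% of its pair in the poly(A)-primed depleted and 8.54%, 8.70% and 7.99% in the random-primed depleted libraries. RpLP0-like and RpL7-like also resemble yeast assembly factors. RpLP0-like held 2.43%, 2.91% and 2.00% with poly(A) priming and 1.47%, 1.54% and 1.40% with random priming after depletion. RpL7-like held 2.21%, 2.51% and 3.01% against 3.05%, 2.97% and 3.87%, which overlapped.

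RpS15Ab lay at 4.27%, 4.23% and 4.32% of its pair in the poly(A)-primed input and 3.95%, 4.13% and 3.69% in the depleted libraries, and at 4.98%, 4.12% and 4.29% against 3.94%, 3.57% and 3.74% in the random-primed libraries. Its share was lower after depletion in both, although its own poly(A)-primed level was higher after depletion. By HTSeq counts RpS15Ab had 50.9, 46.3 and 60.0 CPM in the input and 83.8, 78.7 and 90.8 CPM after depletion. Without the block this increase did not pass (log2 difference 0.50 ± 0.16, edgeR, adjusted p = 0.0915), while that of its major copy RpS15Aa did (0.62). With scaling to the non-rRNA total both copies passed as higher.

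The scarcest copies were RpS28a, RpS28-like, RpS10a, RpL37b, RpS5b, RpL22-like, RpL10Aa and RpS19b. In the random-primed depleted libraries their mean levels ran from 0.731 TPM for RpS28a to 9.48 TPM for RpS19b. RpL22-like, RpS5b, RpS10a and RpS19b are known for expression in the germline, and the germline marker list (vas, nos, bam, zpg, aub, piwi and AGO3) had a summed level of 61.8 to 74.3 CPM in those libraries. In whole larvae few cells with the transcript and little transcript in many cells cannot be told apart. RpS19b had 69, 61 and 72 estimated counts there, which is 0.570% (95% Wilson interval 0.450% to 0.720%), 0.509% and 0.881% of the counts of RpS19a and RpS19b. RpL22-like had 64, 73 and 64 counts, or 1.24%, 1.39% and 1.48% of its pair. RpS5b had 50, 37 and 31 counts, or 0.414%, 0.321% and 0.362% of its pair. These copies were thus present in each of the deep libraries at low levels.

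RpS28a, a gene of 1 exon, had 1, 3 and 3 counts in the random-primed depleted libraries, of the 10610, 9549 and 10158 counts it shared with RpS28b. In the random-primed input libraries it had 0 counts of 344, 304 and 336, which allows a share of up to 0.872%, 0.987% and 0.893%, and the difference from the depleted libraries was not detectable at this depth. RpS10a held 0.124%, 0.228% and 0.149% of its pair in the random-primed depleted libraries and 0.798%, 0.545% and 0.604% in the poly(A)-primed depleted libraries, with no overlap. Intervals and limits of this kind cover counting error only.

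The 2 ways of counting the poly(A)-primed reads were close for most of the genes. HTSeq counts were between 80 and 120 percent of Kallisto's estimated counts for 88 of 92, with a median of 105 percent. RpL7-like, whose exons overlap CG34164 on the same strand, had 0 HTSeq counts in all 6 libraries and between 127 and 312 estimated counts. RpL22, which overlaps lncRNA:CR42491 on the same strand, had 87, 110 and 92 HTSeq counts in the input libraries beside 1231, 1748 and 1188 estimated counts. Its HTSeq values therefore describe a small part of its reads, and the share of RpL22-like in its pair came to 7.79% ± 1.71 (SD, n = 3) by HTSeq counts and 0.46% ± 0.201 (SD, n = 3) by estimated counts in the same input libraries. RpL23A was described above.

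Random priming also reports introns. The intronic share of the ribosomal protein counts was 0.581%, 0.651% and 0.653% in the random-primed input and 0.481%, 0.468% and 0.576% in the random-primed depleted libraries. Every depleted library lay below every input library (p = 0.1 in the exact permutation test). Protein-coding genes outside the group had 10.3% ± 0.865 (SD, n = 3) and 9.02% ± 1.01 (SD, n = 3) intronic counts. In the poly(A)-primed libraries the intronic share of the ribosomal protein genes was 0.193% ± 0.00768 (SD, n = 3) in the input and 0.183% ± 0.0211 (SD, n = 3) in the depleted libraries.

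In the random-primed libraries the genes that host snoRNAs had the higher intronic shares. Among the 27 hosts the median intronic share in the random-primed depleted libraries was 0.494%, with a range from 0.0963% to 7.25%, and among the other 65 genes it was 0.101%, with a range from 0 to 1.49%. RpS5a, with 14 annotated intronic snoRNAs, the most of the group, had 6.18%, 5.99% and 9.59% intronic counts. RpL17 followed with 3.88%, 3.30% and 6.79%, and RpL22 with 2.53%, 3.75% and 3.26%. Of the 9 genes above 1%, 7 are hosts, and the other two are RpL35A (1.49%) and RpS27A (1.24%). Without the hosts, the intronic share was 0.220% ± 0.0309 (SD, n = 3) in the input and 0.212% ± 0.0167 (SD, n = 3) in the depleted libraries, which overlapped. The hosts by themselves, at 1.31% ± 0.172 and 1.04% ± 0.164 (SD, n = 3), overlapped as well, although the share was lower after depletion in 3 of 3 RNA samples. In the poly(A)-primed input the order was the opposite, with 0.0260% ± 0.00377 in the hosts and 0.271% ± 0.0141 in the other genes (SD, n = 3).

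Genes that work with the ribosomal proteins were read from the same fits. Of a list of 30 genes of ribosome biogenesis, 28 were in the tables and tested. In the poly(A)-primed depletion comparison 0 passed by edgeR, against 4.85% of all genes tested, and 0 by DESeq2. At an unadjusted p under 0.05 in edgeR 2 were lower and 0 higher, and the median log2 difference was -0.02. In the random-primed comparison Nopp140, a nucleolar phosphoprotein, fell (log2 difference -1.04, edgeR, adjusted p = 0.0273) and the other 27 did not pass. That is 3.57% called, against 2.34% of all genes tested. With the block Non1 and RpI1 were lower and nop5 was higher in the poly(A)-primed comparison, and Nopp140 was again the only one called in the random-primed one. Of all genes tested with the block, 11.6% were lower and 8.28% higher with poly(A) priming, and 5.43% and 2.44% with random priming. Between the library types 12 were higher and 6 lower in the poly(A)-primed depleted libraries, or 64.3% called against 68.4% of all genes, with a median of 0.33. With the block 14 were higher and 10 lower, and no share of all genes called is given for that fit. Their median level in the random-primed depleted libraries was 12.3 TPM. The proteins sta and Rack1 belong to the small subunit without an Rp symbol. Per length they had 926 ± 131 TPM and 861 ± 146 TPM (SD, n = 3) in the random-primed depleted libraries. Rack1 fell in the poly(A)-primed depletion comparison (log2 difference -0.60, edgeR, adjusted p = 0.0448) and did not pass in the random-primed one (0.22, adjusted p = 0.619), and sta passed in neither. With the block Rack1 was lower with poly(A) priming (edgeR, adjusted p = 7.3e-06) and higher with random priming (adjusted p = 0.012), and sta was lower with poly(A) priming (-0.41, adjusted p = 0.0018).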

How the data were processed

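Reads had been trimmed with Cutadapt (random-primed libraries) or BBDuk (poly(A)-primed libraries). The authors obtained estimated counts with Kallisto on transcripts and flanked introns of BDGP6, and gene counts with STAR and htseq-count for the 6 poly(A)-primed libraries, leaving out ambiguous reads. The deposited Kallisto TPM column was handled as a score, because it stacks all 12 libraries, and was rescaled to genes outside rRNA and spike-ins. A deposited table of the authors' own DESeq2 comparisons, with fold changes and p-values, was not used. The HTSeq summary lines, equal to 7.81% to 9.88% of the counts, were left out.

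Estimated counts were summed over spliced and intronic parts, rounded to whole numbers and tested with edgeR 4.0.16 in R 4.3.3 (TMM, filterByExpr, robust quasi-likelihood test, Benjamini-Hochberg adjustment over all genes, threshold 0.05), as were the HTSeq counts. Spike-ins were left out of the fits. rRNA was left out of the main fits of estimated counts. In the fit of HTSeq counts rRNA genes were kept, and they were left out only of the numbers of genes tested and called. DESeq2 1.42.0 was an alternative. Some numbers of genes called, as with DESeq2, an unadjusted p or the other scalings, are given without the share of all genes. They are not read as particular to the group. For single values an exact two-sided permutation test was run (scipy 1.17.1). The test code was tested on simulated data. Transcript lengths were those implied by counts and TPM. The 3 RNA samples were separate pools of larvae, so that p-values of fits without the block measure the spread between pools along with that between libraries. Fits with the block remove the differences between pools, and their p-values measure the spread that is left. The fit of all 12 libraries without the block treated libraries of the same pool as independent. Per the study, each pool gave 1 input and 1 depleted library of either type, and equal replicate numbers were read as the same pool. Deviations of same-numbered libraries correlated at 0.04, 0.29 and 0.53 (poly(A) priming) and 0.05, 0.22 and 0.30 (random priming), and input replicate 1 correlated better with depleted replicate 2 (0.13 and 0.08). The design left out the pairing, so fits with the pool as a block are given beside it, with the changed calls named for a part of the genes.

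Genes named were the paralogs, the 5 highest and 5 lowest levels, the 5 largest calls in each direction (or, where fewer passed, those and the largest change), the stalk and ubiquitin fusion genes, the biogenesis list, sta and Rack1. RpL35A, RpL18, RpL28, RpL26, RpS6 and other genes beyond that rule were chosen after their values were seen. The members and lists were chosen with earlier results of these data known.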

Additional observations from a re-analysis of the deposited data

Results flagged for a closer look

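RpLP1, the gene of an acidic stalk protein, had opposite depletion changes in the poly(A)-primed and the random-primed libraries, and the difference between the changes passed the test. Its log2 difference between the depletion changes was -1.45 ± 0.26 (SE), with an adjusted p of 0.0191 by edgeR. As described above, this call without the block was lost on leaving out any 1 of most of the libraries. Over the group 82 of 91 values of this difference were below 0, with a median of -0.41, against -0.16 for all genes tested. All 3 poly(A)-primed depleted libraries (2389 to 3534 CPM) lay below the 3 input libraries (3954 to 6376 CPM), and all 3 random-primed depleted libraries (904 to 1195 CPM) lay above the 3 input libraries (727 to 885 CPM). Without the block only the poly(A)-primed change passed by itself, at -0.95 on the log2 scale, while the random-primed change was 0.35 (edgeR, adjusted p = 0.401). The random-primed median of the group was 0.22, against 0.06 for all genes tested, with 73 of 88 values above 0. With a block for the RNA sample the random-primed increase passed too (adjusted p = 0.00018), and the difference was -1.44 (edgeR, adjusted p = 8.4e-11).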

How the results depend on the processing

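Among the ribosomal protein genes called, the sign changed under division by length alone, for 23 of 87 in the depleted and 12 of 88 in the input libraries, RpS10b going to -0.79 and RpL34b to -0.62. The median of the poly(A)-primed comparison went from -0.10 to 0.09 with the non-rRNA total. For the poly(A)-primed depletion comparison, the 1 higher gene became 0 with spike-in scaling, with the threshold of 0.01 and with Kallisto's estimated counts, 2 without the filter and 7 with scaling to the non-rRNA total, an alternative chosen after seeing the data, while the 11 lower genes became 3 with spike-in scaling and 7 at the threshold of 0.01. Leaving out single libraries gave 0 to 2 higher and 6 to 12 lower genes. For the random-primed comparison DESeq2 gave 1 higher gene in place of 0, spike-in scaling gave 2 lower genes in place of 6, and leaving out single libraries gave 3 to 7 lower. Spike-in scaling and DESeq2 put the median of all genes there at -0.10 and -0.06, against 0.06. Division by length changed the priming comparisons to 38 higher and 7 lower in the depleted and 53 higher and 4 lower in the input libraries. The difference between the depletion changes was called for 9 genes without the filter, in place of 1, and for 0 to 2 on leaving out single libraries. Pairs without overlap numbered 5 to 10 in the poly(A)-primed (10 without depleted replicate 3) and 5 to 8 in the random-primed libraries (8 without input replicate 3). Each shift is given with the setting that was changed, and its cause was not tested.

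With the replicate number as a block, which stands for the RNA sample, 12 genes were higher and 29 lower in the poly(A)-primed, 47 higher and 12 lower in the random-primed comparison, and 48 lower in the difference between the changes. Block and spike-in scaling together gave 11 and 35 with poly(A) and 16 and 15 with random priming, and block and non-rRNA total 27 and 19, and 55 and 11. The block lost none of the calls made without it, and the calls it added are given above for a part of the genes only. Depth limits the random-primed input, where the scarcest copies had 0 to 3 counts.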
